A study of Drosophila melanogaster with 2 samples.

Results

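The embryonic segmentation genes are a set of 33 protein-coding genes that divide the Drosophila embryo along its head to tail axis. They were taken by name from the maternal, gap, terminal, head, pair-rule and segment polarity classes by a rule that uses no measured value, though with earlier results of these data known, and all 33 were found among the 13968 protein-coding genes on the main chromosome arms of the Ensembl annotation. The question put to the data was where Ken, tagged with green fluorescent protein (GFP), was recovered around these genes by chromatin immunoprecipitation and sequencing (ChIP-seq). The single group was whole embryos, aged 0 to 24 h and of uncollected sex, from the ken-GFP strain, which carries an insertion that targets ken and expresses a ken-eGFP fusion. It had 2 biological replicates, of which 1 library each was deposited. Sonicated chromatin of 200 to 800 bp was immunoprecipitated with anti-GFP, although another field of the labels names ken as the antibody. There was no untagged or unprecipitated control among the lists analysed here, so no background level stands beside the values, and read depth is unknown. The labels name a control experiment, which was not analysed. Embryos of this age range mix stages before, during and after segmentation, so a site occupied in few cells or for a short time cannot be told apart from one occupied weakly.

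Segmentation works as a cascade of regulators. Maternal gradients switch on the gap genes in broad domains, gap proteins place the stripes of the pair-rule genes, and pair-rule proteins set the stripes of the segment polarity genes, which hold the segment borders through Wingless and Hedgehog signalling. Ken carries a BTB domain and zinc fingers and is known to repress some targets of JAK-STAT signalling, and the JAK-STAT pathway is known to act on pair-rule stripes. The pooled data came as a ranked list of 148989 candidate peaks on the main arms and a conservative list of 2031 peaks. The conservative peaks passed a limit on the irreproducible discovery rate (IDR), which scores how stable the rank of a peak is between replicates. Some further ranked candidates were within the limit but not in the conservative list. In the list of a single replicate, the IDR cannot score stability between the 2 replicates. A summit is the base of highest signal within a peak, and a TSS is an annotated transcription start site. The signal is the authors' value with no stated scale, and it was used only to rank peaks within a list. Values of the 2 replicates are therefore given side by side with percentiles and no SD.

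Some summits lay away from promoters of other genes, and their sequences are given. Which gene each of them belongs to was not tested. Only 3 of the 11 conservative summits found within 20 kb of these genes were of this kind, and the 101 bases around those 3 summits are printed on the forward strand of dm6. They are at hry (chr3L:8675200-8675300), beyond btd (chrX:9703641-9703741) and just past the end of cad (chr2L:20783154-20783254). The TSS nearest to the last is one of Pomp, at 4452 bp, while a TSS of cad is 12310 bp away. It is labelled by cad only as the member within 20 kb. Capitals would mark the core word CGATA, or its complement on the other strand, and none of the 3 windows holds it. Within 100 bp on each side, the summit past cad has 1 match.
hry summit: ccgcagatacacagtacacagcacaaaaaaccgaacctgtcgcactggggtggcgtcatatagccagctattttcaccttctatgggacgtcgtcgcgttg
btd summit: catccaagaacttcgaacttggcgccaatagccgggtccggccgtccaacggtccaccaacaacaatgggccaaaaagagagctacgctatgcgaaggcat
cad summit: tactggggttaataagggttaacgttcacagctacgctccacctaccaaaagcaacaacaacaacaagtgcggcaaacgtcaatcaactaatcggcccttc

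The 250 bases directly upstream of the annotated 5' end are printed in the direction of transcription for hry (chr3L:8675509-8675758, plus strand), slp1 (chr2L:3825425-3825674, plus), drm (chr2L:3538997-3539246, plus) and tsh (chr2L:21828343-21828592, plus), and after them for Ugt36A1 (chr2L:3618847-3619096, plus), a neighbour of odd whose promoter had a conservative summit. Capitals mark matches on either strand to GAGAG, a word of the GAGA factor, to CAGGTAG, the site of the early activator Zelda, and to CGATA, the core shared by sites of DREF and BEAF-32. In the members shown, GAGAG or its complement CTCTC stood 8 times upstream of tsh and 4 times upstream of drm, counting overlapping matches. CAGGTAG stood upstream of hry, slp1 and drm. The members shown are examples and do not represent the set. Among other members, ems, btd, slp2 and sob held 1 match to CGATA each in this stretch, and croc, opa, wg and H15 held 0 to GAGAG. The Ugt36A1 promoter had 4 matches to CGATA and 0 to GAGAG, and it is shown as the neighbour with the most CGATA upstream. The same 250 bases of Unc50, tko and Spindly held 1 match to CGATA each and those of CG9776, boi and Wnt6 held 0, while Unc50, boi and tko held 1 match to GAGAG each. For boi the annotated 5' end is not the TSS nearest to the conservative summit.
hry: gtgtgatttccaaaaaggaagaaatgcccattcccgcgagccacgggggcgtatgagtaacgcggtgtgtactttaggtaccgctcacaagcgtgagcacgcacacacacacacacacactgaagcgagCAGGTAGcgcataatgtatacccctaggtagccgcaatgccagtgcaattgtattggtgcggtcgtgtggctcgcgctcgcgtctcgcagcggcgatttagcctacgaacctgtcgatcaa
slp1: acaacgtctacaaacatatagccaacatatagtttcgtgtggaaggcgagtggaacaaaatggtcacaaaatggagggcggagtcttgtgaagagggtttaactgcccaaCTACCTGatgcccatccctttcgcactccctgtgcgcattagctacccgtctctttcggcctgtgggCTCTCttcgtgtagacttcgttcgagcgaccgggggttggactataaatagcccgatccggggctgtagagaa
drm: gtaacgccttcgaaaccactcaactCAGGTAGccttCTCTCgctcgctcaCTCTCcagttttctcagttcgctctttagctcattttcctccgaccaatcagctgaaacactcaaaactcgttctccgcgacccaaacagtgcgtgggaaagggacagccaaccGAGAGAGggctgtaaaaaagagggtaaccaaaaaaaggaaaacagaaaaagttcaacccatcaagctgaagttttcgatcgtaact
tsh: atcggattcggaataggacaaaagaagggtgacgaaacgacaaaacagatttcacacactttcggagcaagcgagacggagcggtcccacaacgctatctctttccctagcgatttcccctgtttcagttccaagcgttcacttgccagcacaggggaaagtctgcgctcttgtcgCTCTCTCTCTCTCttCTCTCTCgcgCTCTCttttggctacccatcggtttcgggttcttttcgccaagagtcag
Ugt36A1: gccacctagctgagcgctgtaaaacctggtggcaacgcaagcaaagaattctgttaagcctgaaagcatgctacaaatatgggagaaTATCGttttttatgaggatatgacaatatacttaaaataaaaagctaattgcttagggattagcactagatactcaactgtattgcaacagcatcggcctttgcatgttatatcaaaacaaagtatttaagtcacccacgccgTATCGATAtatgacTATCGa

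Of the 33 segmentation genes, hry alone had a conservative summit within 1000 bp of a TSS. Of the members, 31 had a candidate of any rank there (93.9%), against 12442 of the 13935 other genes (89.3%). A conservative summit was present at 1 of these 31 members (3.23%), against 2399 of the 12442 other genes (19.3%). Within 20 kb of the gene, 10 of 33 members had a conservative summit (30.3%), against 8350 of 13935 other genes (59.9%). These 10 were cad, hb, gt, hkb, btd, eve, hry, odd, drm and wg. The shares describe the lists. The genes were not sampled from replicated conditions, and no test was made.

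In the distance plot, members lay farther from a conservative summit than other genes at the median and at both quartiles. Gene spacing, described below, was not matched. The median distance from a member's TSS to the nearest conservative summit was 31383 bp (quartiles 17872 and 61669), against 14316 bp (3295.5 and 44042) for other genes. The nearest after hry were drm at 8978 bp, btd at 9505 bp and eve at 9817 bp. The farthest were Kr at 215089 bp, tsh at 146412 bp and nkd, which encodes a feedback inhibitor of Wingless signalling, at 143853 bp. Kr lies 55542 bp from the end of its chromosome arm, which bounds the stretch where a summit could lie on that side.

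**Figure D1:**
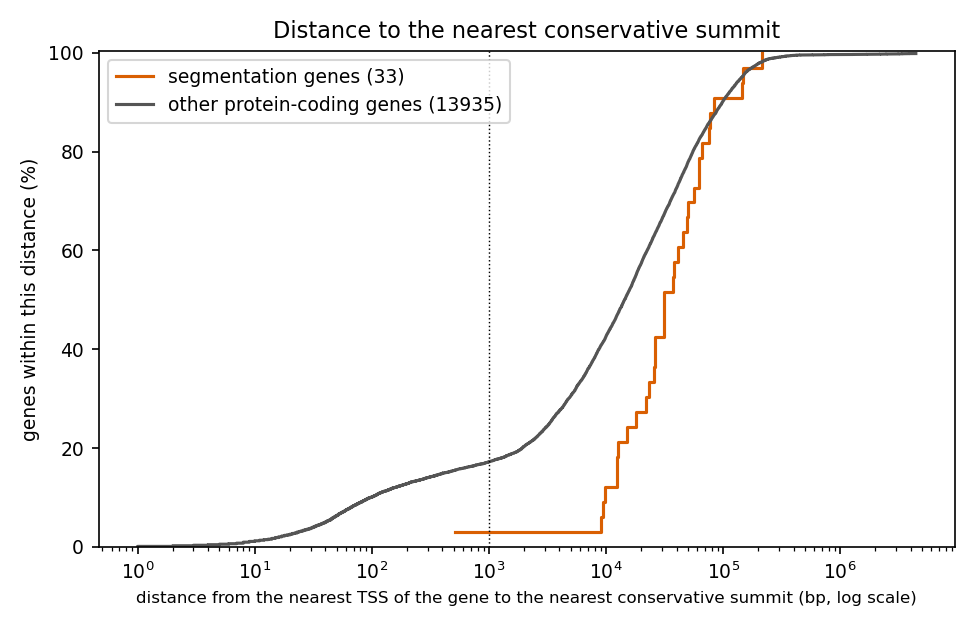
Cumulative share of genes (%) against the distance from a TSS of the gene to the nearest conservative summit (bp, log scale), for 33 segmentation genes (orange) and 13935 other protein-coding genes (grey), with 1000 bp dotted. Among the segmentation genes, hry lies at 509 bp and the next at 8978 bp, while 17.2% of all other genes lie within 1000 bp.

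The 20 kb counts varied with the number of neighbouring genes. Members had a median of 2 other protein-coding genes with a TSS within 20 kb (quartiles 1 and 5), against 8 (5 and 11) for other genes, and 7 members (21.2%) had none, against 239 other genes (1.72%). Among genes with 0 to 4 such neighbours, 4 of 23 members (17.4%) had a conservative summit within 20 kb, against 862 of 2957 other genes (29.2%). With 5 to 9 neighbours it was 6 of 9 members (66.7%), against 62.0% of 5995 other genes, and nkd, the single member with 10 or more, had none, against 3770 of 4983 such other genes with one (75.7%). The part of gene spacing in the 20 kb counts was not tested further. The neighbours themselves, 90 genes that are no members, had a conservative summit within 1000 bp of a TSS in 14 of the 74 cases with a candidate (18.9%), close to the 19.3% of other genes.

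hry (hairy, FBgn0001168) encodes a basic helix-loop-helix repressor of the primary pair-rule class. Its gene lies on 3L at 8675759 to 8679253 on the plus strand, and the conservative peak at 8675045 to 8675454 had its summit 509 bp upstream of the TSS, in sequence annotated as intergenic. The signal was 77.2 in the pooled list, rank 1705 of 2031, with 41.1 in replicate 1 and 33.5 in replicate 2 at the same position. Each was far up the candidates of its own list outside the limit, at the 99.9, 99.4 and 99.01 percentiles. The −log10 global IDR was 2.20, against the limit of 2, a global IDR of 0.01. The peak was called in neither replicate alone, where its −log10 IDR was 0.064 and 0.84 in replicates 1 and 2. In the other ranked list made from both replicates the same value was 1.80, also below the limit. With any of these lists, with a TSS window of 500 bp or among the stronger 50% of peaks, 0 of the 33 genes had a summit at a TSS. None of the 12 motifs searched lay within 100 bp of the hry summit.

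Of the members that did not pass, slp1, bowl and hb came closest to the limit of 2, though all 3 were well below it. slp1 encodes a forkhead factor of the pair-rule class, and its best candidate had a −log10 global IDR of 1.30. bowl, a zinc finger gene related to odd, had 1.05, and hb, a zinc finger gene of the maternal and gap classes, had 1.01. These 3 were the members at 1 or above among the 30 with a candidate and no conservative summit (10%), against 9.84% of 10043 other such genes.

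**Figure D2:**
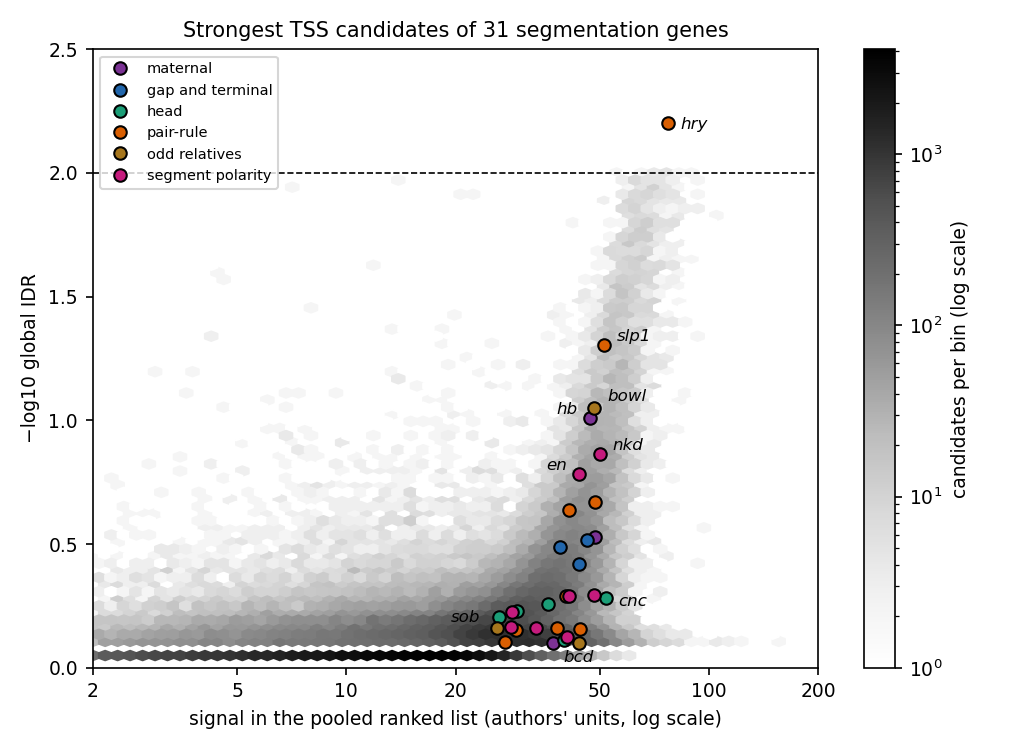
−log10 global IDR against signal (authors' units, log scale) in the pooled ranked list, for the strongest TSS candidate of 31 segmentation genes (points, coloured by role) over all candidates that did not pass (grey bins, log count), with the limit of 2 dashed. hry, at 2.20, is above the limit and slp1, at 1.30, is the next highest.

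The strongest candidate within 1000 bp of a TSS had a median percentile of 91.6 in members (quartiles 84.0 and 95.8), against 90.3 in other genes (74.1 and 99.2). At or above the 95th percentile were 10 of 31 members (32.3%), against 39.2% of other genes, and below the 50th were 0 members, against 8.10% of other genes. These values include hry and the 2399 other genes with a conservative summit. Among genes with none at a TSS, the median was 91.3 in members (quartiles 83.1 and 95.4), against 84.9 in other genes (69.1 and 94.9). The number of candidates within 1000 bp (median 3 in both sets) and of TSSs (median 1 in both) were alike, and members were longer, with a median gene length of 4205 bp against 2161 bp. Of the 31 candidates, 11 had a summit in a coding exon, 9 in a 5' UTR, 8 in intergenic sequence and 3 in an intron, and 19 were downstream of the TSS.

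**Figure D3:**
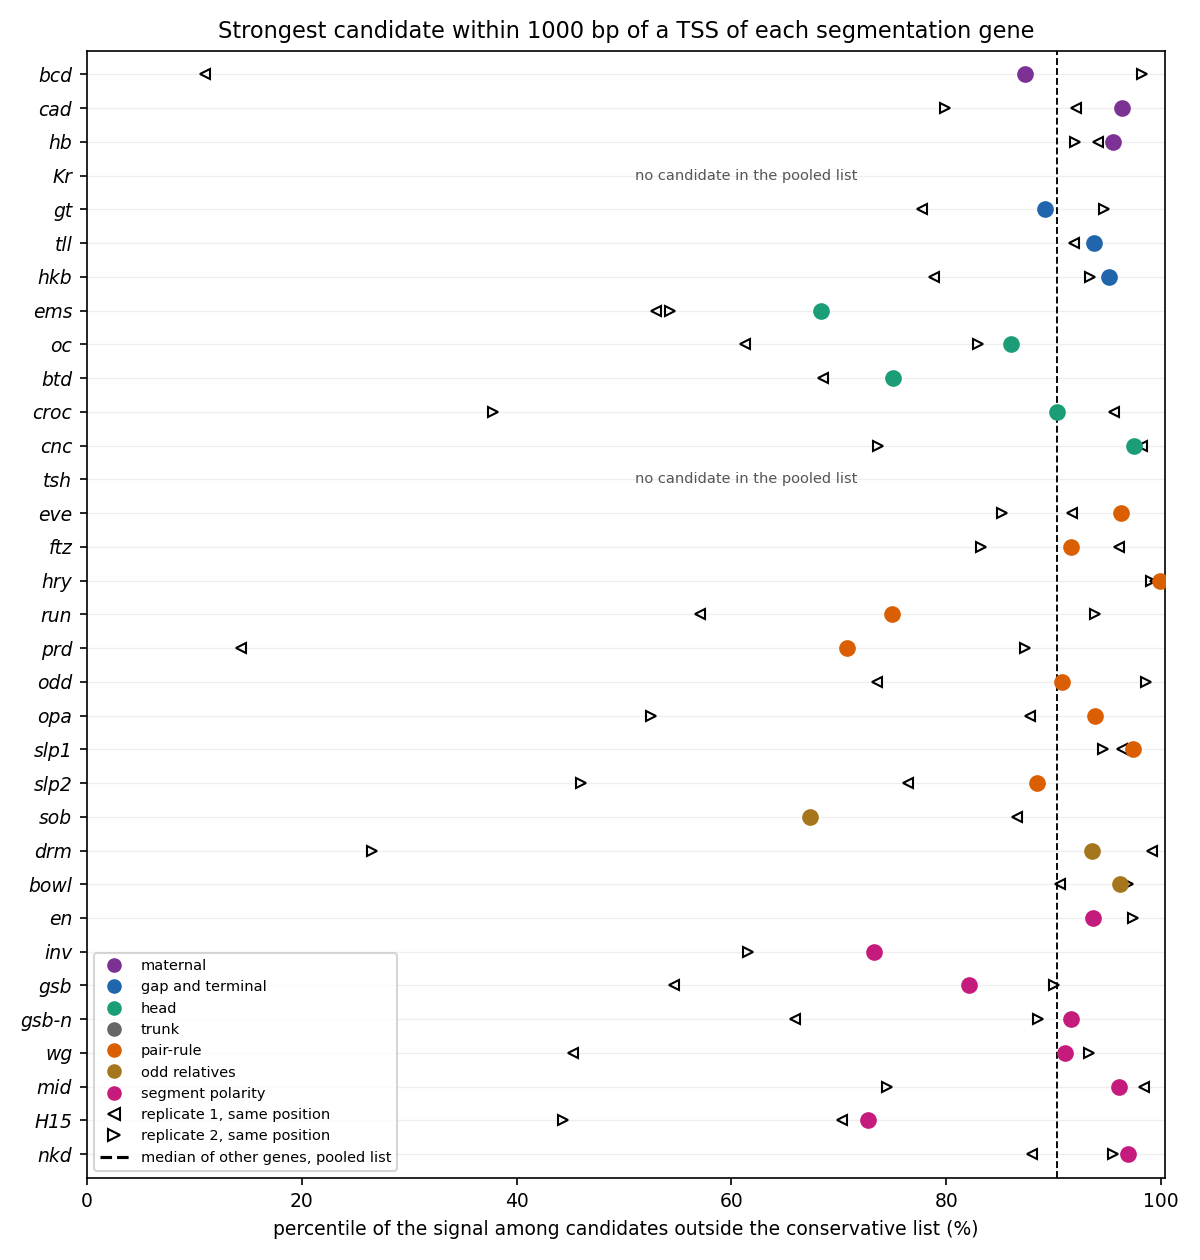
Percentile (%) of the signal of the strongest TSS candidate of each segmentation gene among candidates outside the limit, in the pooled list (filled points, coloured by role) and at the same position in replicate 1 and replicate 2 (open triangles pointing left and right), with the median of other genes, 90.3, dashed. Kr and tsh have no candidate in the pooled list, and in bcd, croc, prd and drm the replicates lie over 50 percentile points apart.

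The replicates ranked these candidates differently. Of the 31, 26 were recovered within 200 bp in both replicates (83.9%), against 77.9% for other genes. Those of tll, btd and sob had no match in replicate 2, and those of en and inv had none in replicate 1. Of the 26, 13 had the higher percentile in replicate 1 and 13 in replicate 2. At these positions, hry was the 1 member at or above the 95th percentile in both, and 11 members were so in 1 replicate.

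The largest differences were at bcd, drm, prd and croc. bcd encodes the maternal homeodomain protein of the anterior gradient, and its candidate 88 bp upstream of the TSS had 4.66 in replicate 1 and 30.5 in replicate 2, the 11.0 and 98.2 percentiles. drm, a zinc finger gene related to odd, went the other way, with 39.1 in replicate 1 and 7.17 in replicate 2, the 99.2 and 26.5 percentiles. prd, a paired domain gene of the pair-rule class, was high in replicate 2, and croc, a forkhead gene of the head, in replicate 1 (95.6 against 37.8 percentile). The pooled signals were 37.1 for bcd and 43.7 for drm. These differences are at the pooled summit, since each replicate value is that of the nearest candidate within 200 bp. The strongest candidate anywhere within 1000 bp of a TSS had 26.9 for drm in replicate 2, the 96.2 percentile, and 13.8 for bcd in replicate 1, the 55.3 percentile, so that drm had a high candidate in both replicates at different positions.

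Among the maternal genes, cad was highest. cad encodes the homeodomain protein of the posterior gradient, and its strongest candidate, in the 5' UTR 14 bp past a TSS, had a signal of 48.6, with 26.2 in replicate 1 and 18.1 in replicate 2. It stood at the 96.3 percentile, hb at 95.5 and bcd at 87.3, and none of the 3 had a conservative summit within 1000 bp. The gap and terminal genes gt, a bZIP factor, tll, a nuclear receptor, and hkb, a zinc finger factor, stood between 89.2 and 95.1.

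Kr and tsh, both zinc finger genes, were the 2 members with no candidate at all within 1000 bp of the TSS in the pooled list. Kr is the gap gene of the central domain and lies on 2R at 25226611 to 25231394, and tsh, which promotes trunk identity, lies on 2L at 21828593 to 21837011. The empty stretch around the Kr TSS was 14371 bp and that around the tsh TSS 14377 bp, where the median gap between candidates was 620 bp and 0.31% of gaps were as long. Replicate 2 had the same gaps, of 14383 and 14289 bp. Replicate 1 did not. There the Kr TSS had a candidate 126 bp upstream with a signal of 33.1, at the 97.6 percentile, and tsh had one 122 bp upstream with 53.9, at the 99.9 percentile and the highest TSS signal of any member in that list. The other pooled ranked list also held the tsh candidate, with a signal of 55.3, and none at Kr. The presence of candidates at both genes thus differed between the replicates, and at tsh also between the 2 pooled ranked lists. The reason was not tested.

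The head genes had the lowest median percentile of the roles with more than 1 member and a candidate, 86.0. cnc, a bZIP gene of the head, was the exception at 97.5, the highest of any member after hry. Its candidate, in a 5' UTR 100 bp past a TSS, had a signal of 52.02, with 34.8 in replicate 1 and 16.3 in replicate 2. cnc also has 10 annotated TSSs and 15 candidates within 1000 bp of them, the most TSSs of any member, where the median was 1 TSS and 3 candidates. ems, a homeodomain gene of the head, had 26.4, with 13.3 in replicate 1 and 12.2 in replicate 2, at the 68.4 percentile. oc, a homeodomain gene, btd, a zinc finger gene, and croc lay between 75.01 and 90.3.

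The 9 pair-rule genes stood between the 70.8 and 99.9 percentiles, and of the members with a candidate only sob and ems were lower. After hry, slp1 had a candidate in its coding exon 709 bp past the TSS with a signal of 51.5, with 30.7 in replicate 1 and 25.2 in replicate 2, at the 97.4 percentile. eve, a homeodomain gene, had one 803 bp upstream with 48.4, with 26.0 and 19.9 in replicates 1 and 2, at the 96.3 percentile. The lowest was prd, with 27.5, and 5.38 and 20.7 in replicates 1 and 2, at the 70.8 percentile. ftz (homeodomain), run (Runt domain), odd and opa (zinc finger) and slp2 (forkhead) stood between 74.9 and 93.9.

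Among the relatives of odd, bowl stood at 96.2, drm at 93.6 and sob, another zinc finger gene, at 67.3, with odd itself at 90.8. The sob candidate had a signal of 26.0, and 23.0 in replicate 1, with none within 200 bp of that summit in replicate 2, and it was the lowest of all members in the pooled list. Elsewhere within 1000 bp of the TSS, replicate 2 had a sob candidate of 18.2.

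The segment polarity genes held no conservative summit at a TSS, and their best candidates stood between 72.8 and 96.9. nkd was highest, with a signal of 50.03, and 23.7 in replicate 1 and 26.0 in replicate 2. H15, a T-box gene, was lowest with 28.4, and 17.4 in replicate 1 and 10.3 in replicate 2. inv, a homeodomain gene next to en, had 28.6, with no candidate within 200 bp of that summit in replicate 1 and 13.6 in replicate 2, at the 73.3 percentile. Elsewhere within 1000 bp of a TSS, replicate 1 had an inv candidate of 24.2. wg, which encodes the Wnt ligand Wingless, stood at 91.0.

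Closely related neighbours often differed in rank. slp1 and slp2 stood at 97.4 and 88.5, en and inv at 93.7 and 73.3, mid and H15 (T-box) at 96.1 and 72.8, and gsb-n and gsb (paired domain) at 91.6 and 82.1. Each of these differences is of the size seen between replicates for single members, so no order within a pair is claimed.

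The 11 conservative summits within 20 kb lay mostly at promoters of other genes, and no 2 members shared one. Of the 11, 8 were within 1000 bp of a TSS of a gene that is no member, 1 was at hry and 2 were over 1000 bp from any TSS. Both replicates had called 7 of the 11 on their own. The same shares over all 2031 conservative peaks were not computed, so these counts show no trait particular to summits near members. Their median signal was 164, against 127 over the 2031 conservative peaks, and their median distance to the nearest TSS was 48 bp.

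Of the 8 at promoters, 4 were near hkb, hb and gt, and they included the 3 strongest. Near hkb, the summit 19 bp upstream of a TSS of CG9776 had a signal of 442, with 187 in replicate 1 and 264 in replicate 2. Near hb, the summit 115 bp upstream of Unc50 had 352, with 120 and 219 in replicates 1 and 2. gt had 2 in its vicinity, at boi, which encodes a Hedgehog co-receptor (287, with 124 and 163 in replicates 1 and 2), and at tko, which encodes a mitochondrial ribosomal protein (166, with 67.1 and 86.6). These were well above the promoter values of the members, of which the highest was the 77.2 of hry.

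The other 4 at promoters were near eve, odd, drm and wg. The summit near eve, on 2R, was 23 bp upstream of TER94, which encodes an AAA ATPase, with 179, and 81.3 and 107 in replicates 1 and 2. The one near odd was at Ugt36A1, a UDP-glycosyltransferase gene, with 164, and 77.2 and 80.3 in replicates 1 and 2. The one near drm, at Spindly, which encodes a dynein adaptor of the kinetochore, had 113, with 54.0 and 62.3. The one near wg, 350 bp upstream of the Wnt gene Wnt6, had 79.9, with 35.2 and 45.9, and was in the thresholded list of neither replicate.

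**Figure D4:**
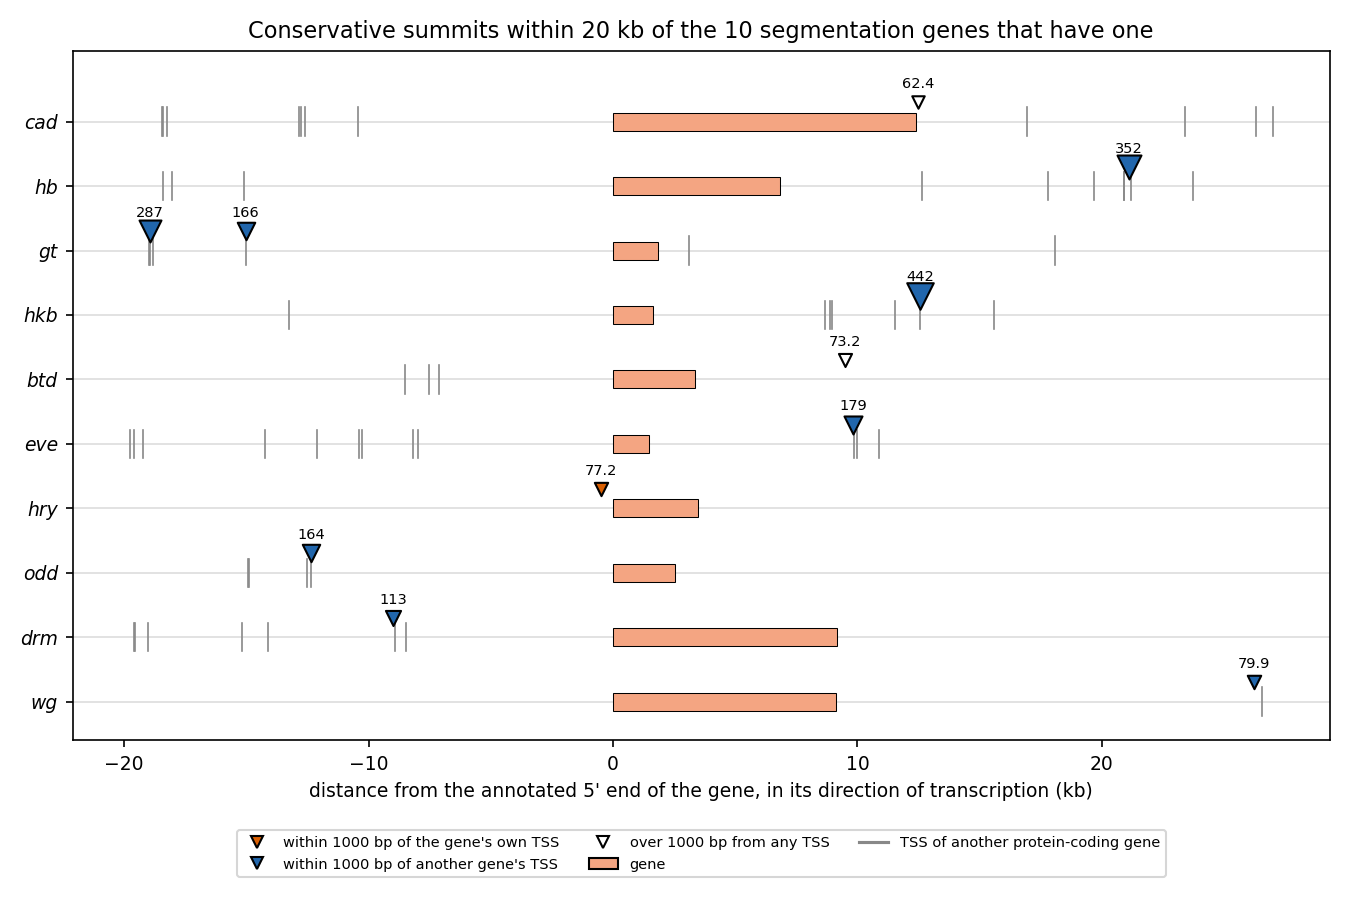
Conservative summits (triangles, sized and labelled by signal in the authors' units) within 20 kb of the 10 segmentation genes that have one, by distance from the annotated 5' end of the gene in its direction of transcription (kb). Triangles are orange at the gene's own TSS, blue within 1000 bp of another gene's TSS and white over 1000 bp from any TSS, bars are the genes and grey ticks the TSSs of other protein-coding genes. Of the 11, 8 are blue, 2 white and 1, at hry, orange.

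The 2 summits away from any promoter were among the weakest of the 11. The one near btd, on X at 9703486 to 9703895, lay 9505 bp from the btd TSS and 6133 bp outside the gene, with a signal of 73.2, and 34.6 in replicate 1 and 44.7 in replicate 2. It was in the thresholded list of replicate 2 only. The one near cad, on 2L at 20782999 to 20783408, lay 69 bp past the end of the gene and 4452 bp from a TSS of Pomp, with 62.4, and 38.7 in replicate 1 and 31.4 in replicate 2, and was in the list of neither.

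Enhancers of these genes lie mainly outside their promoters, so candidates over 1000 bp from any TSS and within 20 kb of the gene were also ranked. The best of them had a median percentile of 98.5 in members (quartiles 96.5 and 99.3), with a median of 45 such candidates, against 97.9 (95.7 and 99.2) in other genes, with a median of 33. At or above the 99th percentile were 12 of 33 members (36.4%), against 28.1% of other genes. slp1 and slp2 had the same best candidate, as did drm and sob, so these 12 members are not 12 separate peaks. Such sharing was not counted among other genes. A longer list of candidates gives a higher maximum, so the counts stand beside the shares. The highest, beyond btd at 13853 bp from the TSS, had a signal of 86.5, with 30.4 in replicate 1 and 57.3 in replicate 2, and a −log10 global IDR of 1.87, below the limit. ems came next with 76.6, which rested on replicate 2 (9.34 and 57.7 in replicates 1 and 2). The lowest was Kr with 13.8, among 5 such candidates.

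The motif content of the promoters was read from 250 bp before to 50 bp after the annotated 5' end, on both strands. GAGAG was in 28 of 33 members (84.8%), against 29.6% of the 13935 other genes and 21.7% of the 2399 other genes with a conservative summit at a TSS. At least 3 matches were in 16 members (48.5%), against 6.01% of other genes. The most, 10, were at cnc and en. Around the 11 conservative summits near members, GAGAG lay within 100 bp of 6 (54.5%), against 18.9% of the other 2020 conservative summits. CAGGTAG was in 6 members (18.2%), gt, ftz, hry, odd, slp1 and drm, against 1.60% of other genes.

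CGATA ran the other way. It was in 7 members (21.2%), ems, btd, eve, hry, slp2, sob and inv, against 47.4% of other genes and 82.4% of those with a conservative summit at a TSS. TATCGATA, the longer site of DREF, which contains CGATA, was in 0 members, against 9.38% of other genes and 32.6% of those with a summit. GGTCACACT, known as Motif 1, was also in 0 members, against 6.05% of other genes. Around the 11 summits near members, CGATA lay within 100 bp of 8 (72.7%), against 75.3% of the other 2020 conservative summits, and the 3 without it were at Wnt6, hry and btd.

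Base composition was not matched for any of these words, and its part in the shares was not tested. The Ken consensus GNGAAAG or GNGAAAT was in 16 members (48.5%), against 33.4% of other genes. It lay within 100 bp of 1 of the 11 summits near members (9.09%), that of Unc50, against 23.3% of the other 2020 conservative summits. TCAGT, a word of the initiator, was in 22 (66.7%), against 51.5%, and the TATA word TATAAA in 6 (18.2%), against 45.8%. The E-box CAGCTG was in 8 (24.2%), against 17.6%, and the STAT92E word TTCNNNGAA in 4 (12.1%), against 9.22%. The Caudal word TTTATG was in 4 (12.1%), against 27.3%, and the Bicoid word GGATTA in 0, against 8.75%. From 500 bp before to 100 bp after the 5' end, TTTATG was in 13 members, against 47.5% of other genes. GGATTA was then in 2 members, against 19.6%. Only the outermost 5' end of each gene was read, so further TSSs, such as those of hb and cnc, had no window of their own. A match is a word in the sequence and shows no binding.

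**Figure D5:**
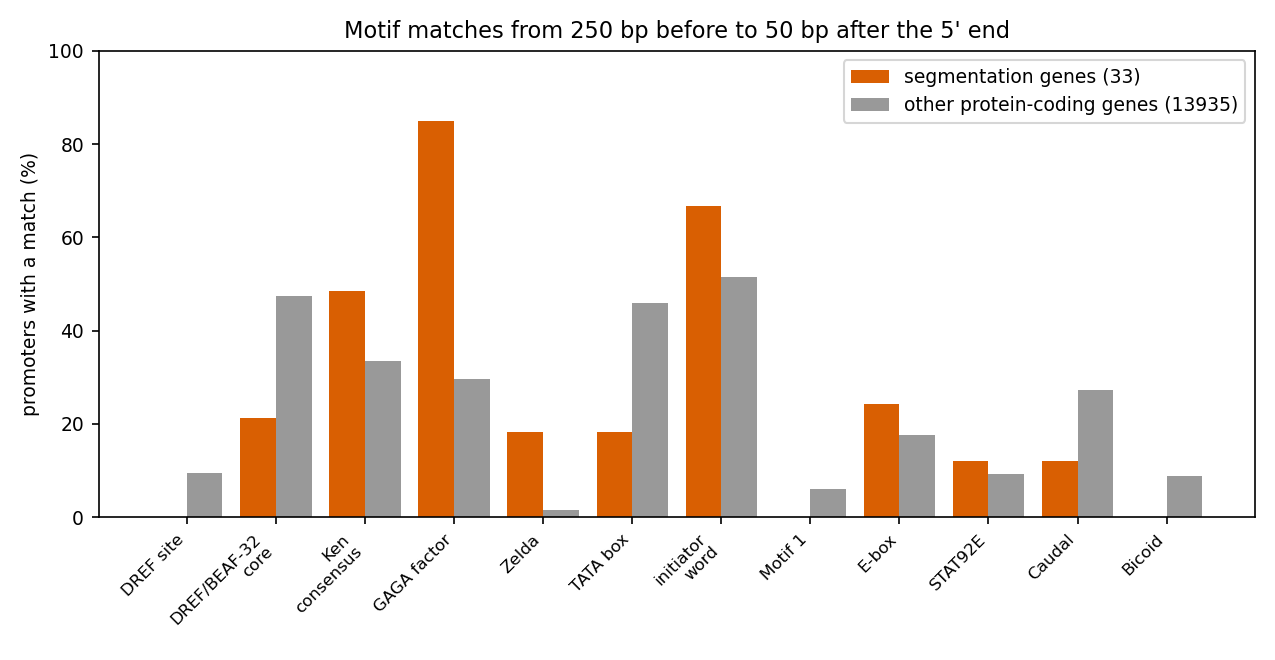
Share of promoters (%) with at least 1 match to each of 12 motifs, from 250 bp before to 50 bp after the annotated 5' end, for 33 segmentation genes (orange) and 13935 other protein-coding genes (grey). GAGAG is in 84.8% of segmentation genes against 29.6% of other genes, and CGATA in 21.2% against 47.4%.

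Other genes of the same hierarchy were set beside the members. Of 34 maternal factors, cofactors, further gap genes and signalling components, 30 had a candidate within 1000 bp of a TSS and 6 had a conservative summit there (20%), near the 19.3% of other genes. These were nos, the maternal posterior determinant (signal 372, with 142 and 223 in replicates 1 and 2), lilli, a nuclear transcription elongation factor gene (302, with 137 and 149), and exu, which acts in bcd RNA localisation (147, with 74.0 and 72.5). The others were the Hedgehog pathway transducer smo (131, with 59.2 and 66.1) and the corepressor genes gro (128, with 82.6 and 56.7) and CtBP (44.9, with no candidate within 200 bp in replicate 1 and 31.2 in replicate 2). The further gap genes of this list, kni, knrl, nub, pdm2, D and cas, had no conservative summit within 1000 bp of a TSS. The share of 20% thus mixes classes of genes. Within 20 kb, 22 of the 34 had a conservative summit, where the share of other protein-coding genes was 59.9%. The median percentile of the best candidate was 96.5, against 90.3 in other protein-coding genes. The difference between the 2 lists was not tested.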

How the data were processed

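ChIP-seq peak lists of 2 biological replicates were used as deposited by the authors, on dm6 per the labels. The deposited lists give for each peak a score (capped at 1000) and a signal with no stated scale, and the authors' ranked lists give the global IDR as −log10. The aligner and the peak caller were not given in the sources used here. Conservative peaks had a global IDR at or below 0.01, as read from the values. In the deposited pooled ranked lists, 16 further columns of single-input values were not used. Depth is unknown.

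Genes and TSSs were protein-coding entries of Ensembl release 115, and sequence came from the RefSeq release 6 genome, which has dm6 coordinates. Summits were assigned within 1000 bp of a TSS or 20 kb of a gene. Percentiles are the share of the candidates with a global IDR above 0.01 in the same list that had a lower signal. There were 146877 such candidates in the pooled list, 133535 in replicate 1 and 120047 in replicate 2. Replicate signals are those of the nearest candidate within 200 bp in that replicate's ranked list. The gene nos is annotated as nanos and was matched by synonym. The members and lists were chosen with earlier results of these data known. Values are given in full for members with a conservative summit at a TSS and for the 5 highest and 5 lowest percentiles of the rest, for neighbouring genes nearest to a summit, and for those of 34 other hierarchy genes with a summit at a TSS. Replicate differences over 50 percentile points, related gene pairs, members near the IDR limit and the members Kr and tsh were chosen after their values were seen. Alternatives varied the list, the replicate, the IDR limit, the windows, the background and the promoter length. Window, percentile and motif functions were tested on simulated data. Python 3.11.15, numpy 2.4.6, pandas 2.3.3 and matplotlib 3.10.9 were used.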

Additional observations from a re-analysis of the deposited data

How the results depend on the processing

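Of 60 alternative values, 30 stayed within the spread or within 1.5 times the main value and 30 moved. The 1 member with a conservative summit at a TSS, hry, was lost (0 members) with the other pooled list, at a global IDR of 0.001, in the stronger 50% of peaks and with 500 bp, and the lists of either replicate alone gave 0 to 0. The count of 10 members within 20 kb was 5 at an IDR of 0.001, 5 in the stronger 50% of peaks, 5 within 10 kb and 22 within 50 kb, and 7 to 8 from single replicates. The 11 summits became 6, 6, 5 and 50 under these settings, and the 8 at promoters of other genes became 2 within 10 kb and 45 within 50 kb. The 19.3% of other genes was 10.4% at an IDR of 0.001, 11.98% in the stronger 50% of peaks, 21.96% with 2000 bp and 14.6% to 18.2% from single replicates. The members' median percentile of 91.6 was 88.9 when ranked by global IDR (other genes 87.8), 87.3 against promoter candidates only (85.8), 82.0 with 500 bp (85.3), and 88.9 to 92.1 from single replicates (other genes 88.9 and 87.4). With 2000 bp other genes were higher, at 94.6 against 91.6. The other pooled ranked list, an alternative chosen after seeing the data, gave 91.8. With 100 bp between summits, 19 candidates in place of 26 were recovered in both replicates. With promoters from 500 bp before to 100 bp after the 5' end, GAGAG was in 30 members and 46.9% of other genes, and CGATA in 16 members and 64.9%. The causes of these shifts were not tested. With 2 replicates, no control among the lists analysed and unknown depth, a missing peak shows no absence of binding. The shares carry no error between embryo collections.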
